A study of Mus musculus with 101 samples.

Results

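The tumours described here are the mouse mammary tumours of genotypes KP and KB1(L1363P)P that carried neither a Yap1 nor a Met amplification. They were chosen by the deposited log2 segment values, the copy-number level of each gene after neighbouring measurements had been merged into segments, where 0 is the level of the reference. A tumour entered the set when the values of Yap1 and Met were both under 1, and it entered the comparison group when either was 1 or more. Of 42 tumours of these genotypes, among 101 samples in all, 9 lacked both amplifications and 33 had at least 1. The 9 were 3 of 18 KP tumours and 6 of 24 KB1(L1363P)P tumours.

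Genomic DNA of mammary tumours was sequenced at low coverage to read copy number along the genome. In the common shorthand for such mouse strains, K stands for a Cre recombinase under the keratin 14 promoter, which is active in epithelial cells, and P for deletion of the tumour suppressor Trp53, so all 42 tumours share both. KB1(L1363P)P tumours carry in addition the Brca1 variant p.L1363P, and KP tumours have no engineered Brca1 change. The labels give no age, treatment or animal, and replicate numbers below were given in accession order within a genotype and only name a tumour. Nothing in the labels ties a tumour to its own mouse, so p-values measure only the spread between these samples.

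Yap1 encodes a transcriptional coactivator that drives growth genes when the kinases of the Hippo pathway do not hold it in the cytoplasm. Met encodes the receptor tyrosine kinase for hepatocyte growth factor, which signals through Ras. Both can be targets of focal amplification, the gain of many copies of a short stretch of DNA, and both have been linked to epithelial-mesenchymal transition. Mammary tumours in this set were classed by their labels as adenocarcinoma (epithelial), carcinosarcoma (mixed) or sarcomatoid (spindle-shaped).

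The values that chose the tumours left a wide gap. Among the 9 tumours lacking both, the highest value at either gene was 0.44, at Yap1 in KB1(L1363P)P replicate 1, followed by 0.25 at Met in KB1(L1363P)P replicate 19. Among the 33 amplified tumours, taking the higher of the 2 genes in each, the lowest values were 3.25 in KB1(L1363P)P replicate 15 and 3.28 in KP replicate 15, and the largest was 5.44 in KB1(L1363P)P replicate 5. The amplification was at Yap1 alone in 21 tumours, at Met alone in 10 and at both in 2. Yap1 read -0.83 in KP replicate 7, a loss call of 1 copy, and lay between -0.02 and 0.44 in the other 8 tumours. The 0.44 of KB1(L1363P)P replicate 1 was a gain call of 3 copies. These values describe the choice of the tumours, so no test of them is used. In the other genotypes, 29 of 31 KB1P tumours, 24 of 25 KB2P tumours and 3 of 3 spleens also had both genes under 1.

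**Figure D1:**
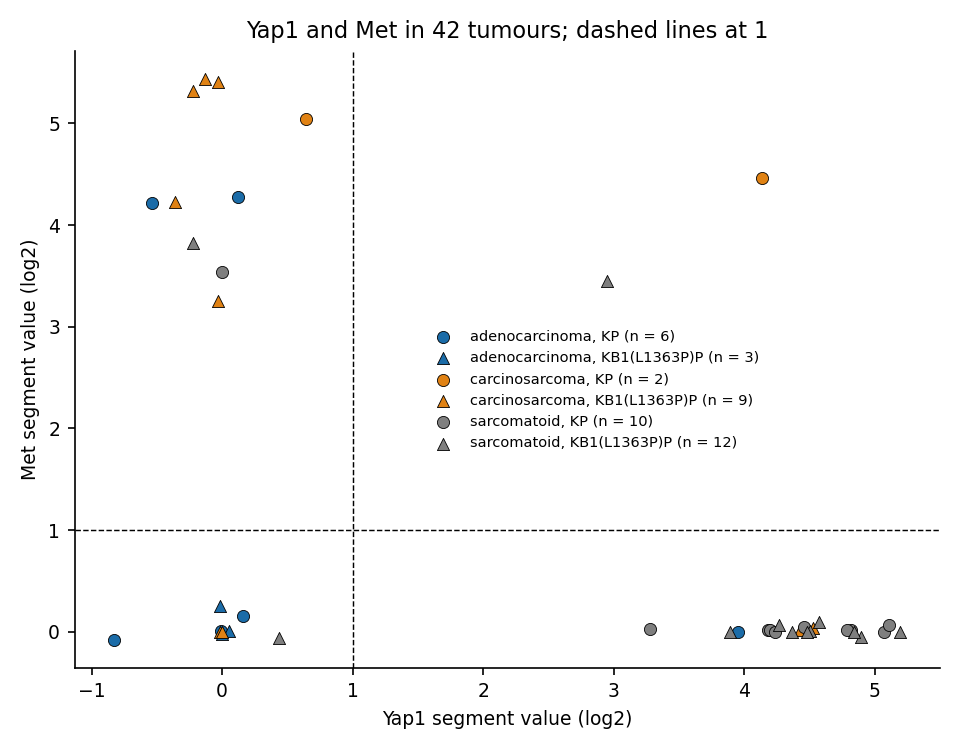
Deposited log2 segment values of Yap1 (horizontal) and Met (vertical) in each of the 42 tumours, with colour for histology and symbol for genotype, and dashed lines at 1. The 9 tumours lacking both lie at the lower left, none above 0.44 on either axis, and every amplified tumour reaches at least 3.25 on 1 axis.

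The noise of neighbouring log2 ratios ran from 0.057 to 0.079 in the tumours lacking both and from 0.070 to 0.137 in the amplified tumours, and read depth is unknown. Library series 5289 held 6 of the 9 and 17 amplified tumours, series 5490 held 3 and 6, and series 5750 held 10 amplified tumours, all sarcomatoid KP tumours, and none of the 9. The segment value of Trp53 lay between -0.18 and 0.51 in the 9 tumours, which checks nothing, since a conditional deletion removes only part of the gene. Over the 29051 placed genes outside chromosomes 6 and 9, the profiles of the 9 tumours had pairwise correlations from -0.18 to 0.49 (36 pairs that share bins and correction, with no test).

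Tumours lacking both amplifications were mostly adenocarcinomas. Of the 9 adenocarcinomas of the 2 genotypes, 6 lacked both, against 2 of 11 carcinosarcomas and 1 of 22 sarcomatoid tumours. Seen from the tumours, 66.7% of the 9 and 9.09% of the 33 amplified tumours were adenocarcinomas (exact Fisher-Freeman-Halton test over the 3 histologies, adjusted p = 0.0018 over 12 comparisons). Sarcomatoid tumours were 11.1% of the 9 and 63.6% of the 33 (Fisher's exact test, adjusted p = 0.0092). All 3 adenocarcinomas of KB1(L1363P)P lacked both, as did 3 of 6 adenocarcinomas of KP. Within KB1(L1363P)P alone the exact test over the 3 histologies gave p = 0.0117, and within KP alone p = 0.0441. With the comparisons rerun in KP alone, where genotype cannot be tested, the adjusted exact p was 0.0539, and in library series 5289 alone it was 0.0601.

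The epithelial percentage in the labels followed the histology. It was 100 in the 6 adenocarcinomas, 40 and 95 in the 2 carcinosarcomas and 0 in the sarcomatoid tumour, a mean of 81.7% ± 36.4 (SD, n = 9). The amplified tumours had a mean of 27.9% ± 42.7 (SD, n = 33), and the difference passed an exact permutation test over all splits of the 42 tumours (two-sided, adjusted p = 0.0020). In series 5490 alone the means were 100 and 90 and the difference did not pass (adjusted exact p = 0.302). Genotype did not pass a test: 66.7% of the 9 and 54.5% of the 33 were KB1(L1363P)P tumours (Fisher's exact test, p = 0.708).

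The tumours lacking both carried more copy-number change on the rest of the genome. Chromosomes 9 and 6, which hold Yap1 and Met, were left out of these measures. A gene counts as altered when its deposited copy score differs from 2, which needs a segment value of at least 0.32 or at most -0.42. The altered share was 42.4% in KB1(L1363P)P replicate 7, 33.6% in KP replicate 4, 26.4% in KP replicate 7, 18.7% in KB1(L1363P)P replicate 17 and 16.2% in KB1(L1363P)P replicate 19. It was 13.8% in KB1(L1363P)P replicate 21, 11.5% in KP replicate 2, 7.35% in KB1(L1363P)P replicate 3 and 1.17% in KB1(L1363P)P replicate 1. The 33 amplified tumours ran from 0 to 14.7% with a median of 0.062%, and 12 of them had no altered gene. So 5 of the 9 lay above every amplified tumour, all 9 lay above the amplified median, and the groups overlapped in the lower range.

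The mean altered share was 19.01% ± 13.04 (SD, n = 9) against 3.28% ± 4.43 (SD, n = 33), a difference of 15.7 points (exact permutation test, two-sided, adjusted p = 3.1e-05). Most of it was loss: 14.5% of genes were lost in the 9 and 2.18% in the 33 (exact adjusted p = 3.1e-05), and 4.48% were gained against 1.101% (exact adjusted p = 0.0032). Histology moved with this result. Among adenocarcinomas alone the altered share was 24.0% ± 12.3 (SD, n = 6) lacking both and 5.63% ± 2.63 (SD, n = 3) amplified, every one of the 6 lying above the 3 (11.5 to 42.4% against 3.23 to 8.43%; exact adjusted p = 0.0952, raw exact p = 0.0357). Among carcinosarcomas the 2 lacking both had 7.35 and 18.7% and the 9 amplified ones a mean of 7.34%, and the sarcomatoid tumour lacking both, with 1.17%, was at the mean of the 21 amplified ones (1.21%). With the status permuted only within histology the difference still passed (exact adjusted p = 0.0310).

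The result depends on the size of change that counts. With a gene counted from any segment value beyond 0.1 in either direction, the share was 37.8% in the 9 and 36.2% in the 33 (exact permutation p = 0.811). The sarcomatoid amplified tumours, with 1.21% of genes called, had 36.6% beyond 0.1. With a value beyond 0.2 counted, the shares were 27.7% and 15.5% (exact permutation test, adjusted p = 0.0432). The part of the share of tumour cells in this was not tested. In the amplified tumours the median level of the higher of Yap1 and Met was 4.22 in 3 adenocarcinomas, 4.53 in 9 carcinosarcomas and 4.46 in 21 sarcomatoid tumours.

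Breakpoints, the changes of segment value between neighbouring genes, were more frequent too. They numbered 182 in KP replicate 4, 103 in KB1(L1363P)P replicate 21, 93 in KP replicate 2, 80 in KB1(L1363P)P replicate 19 and 79 in KP replicate 7. The remaining tumours had 74 in KB1(L1363P)P replicate 17, 60 in KB1(L1363P)P replicate 7, 14 in KB1(L1363P)P replicate 1 and 10 in KB1(L1363P)P replicate 3. The amplified tumours ran from 0 to 75 with a median of 10, so 5 of the 9 lay above all of them. The means were 77.2 ± 50.9 (SD, n = 9) and 14.2 ± 17.3 (SD, n = 33) (exact permutation test, adjusted p = 3.1e-05), and among adenocarcinomas alone 99.5 ± 42.9 (SD, n = 6) and 16.3 ± 16.7 (SD, n = 3) (exact adjusted p = 0.0476). Large-scale transitions, breaks between segments of at least 10 Mb, averaged 6.67 ± 2.87 (SD, n = 9) and 2.06 ± 2.95 (SD, n = 33) (exact adjusted p = 0.0011), with ranges of 2 to 12 and 0 to 13 that overlapped throughout.

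**Figure D2:**
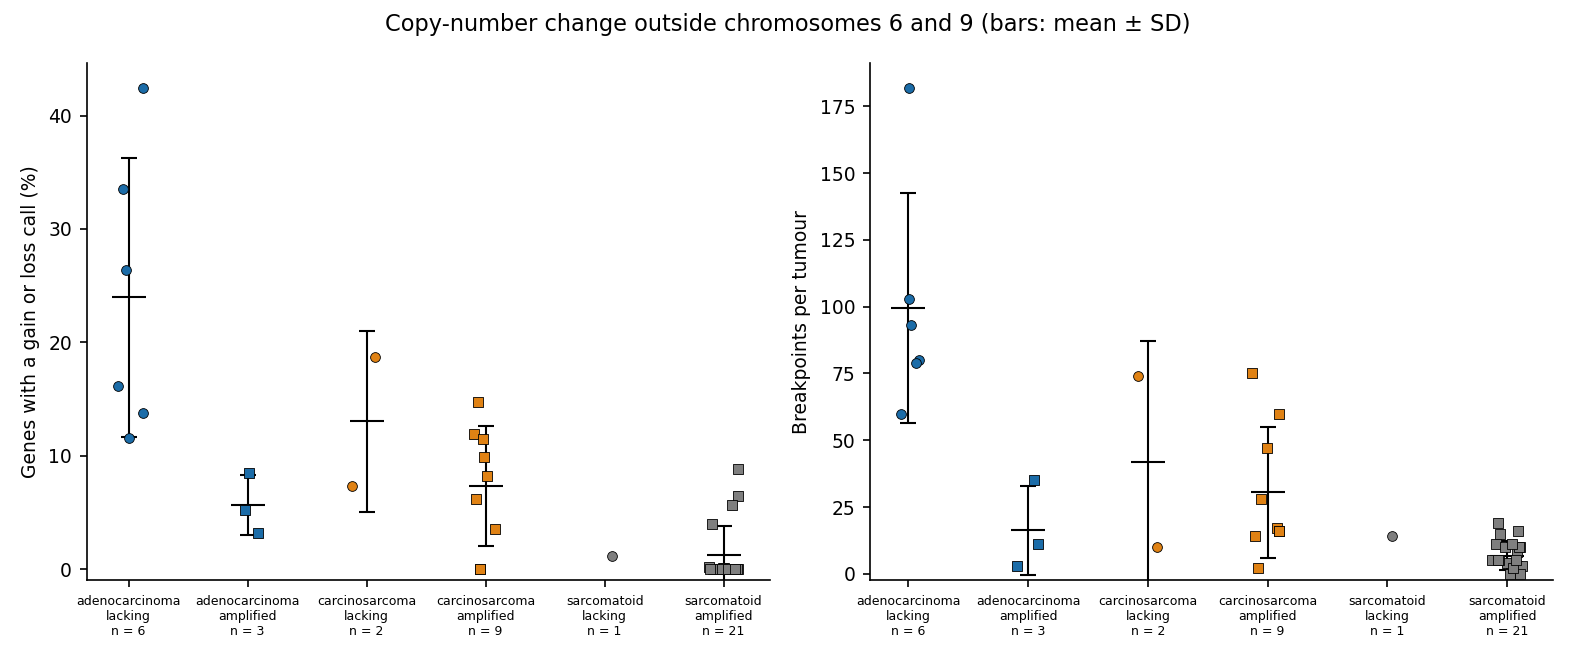
Percent of genes with a gain or loss call (left) and number of breakpoints (right) outside chromosomes 6 and 9, 1 point per tumour, by histology and amplification status; bars are the mean ± SD. The 6 adenocarcinomas lacking both lie above the 3 amplified ones in both panels, at 11.5% or more and at 60 breakpoints or more.

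Almost every tumour lacking Yap1 and Met amplification had a high-level gain elsewhere, defined as a segment value of at least 1. Outside chromosomes 6 and 9 this held for 8 of the 9 and for 4 of the 33 amplified tumours (88.9 against 12.1%, Fisher's exact test, adjusted p = 0.0001). In series 5490 alone, 3 of 3 and 1 of 6 had one (adjusted exact p = 0.143), and among adenocarcinomas alone 6 of 6 and 1 of 3 (adjusted exact p = 0.127). The exception among the 9, KB1(L1363P)P replicate 3, had its only high-level gain on chromosome 6. Deep loss, a value of at most -1, was found in 2 of the 9 and 1 of the 33 (exact p = 0.111). The deep losses of the 9 had a deposited copy score of 1, so they were not scored as complete losses.

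The gains differed from tumour to tumour. In all, 2109 placed genes reached 1 in at least 1 of the 9 tumours, 66 reached it in 2 and none in 3. Of the 2109, 41 also reached 1 in an amplified tumour. They lay on chromosome 6, in a gain of KB1(L1363P)P replicate 20 that fell inside a gain of KP replicate 7. The share of all genes that reached 1 in an amplified tumour was not counted. The 66 shared genes lay on the X chromosome (41 genes, KP replicate 2 and KB1(L1363P)P replicate 21), on chromosome 10 (20 genes, KB1(L1363P)P replicates 7 and 17) and around Myc on chromosome 15 (5 genes, KB1(L1363P)P replicates 1 and 19). Coordinates below are of mouse build GRCm38, and a region runs from the first to the last gene of an unbroken row at 1 or more.

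**Figure D3:**
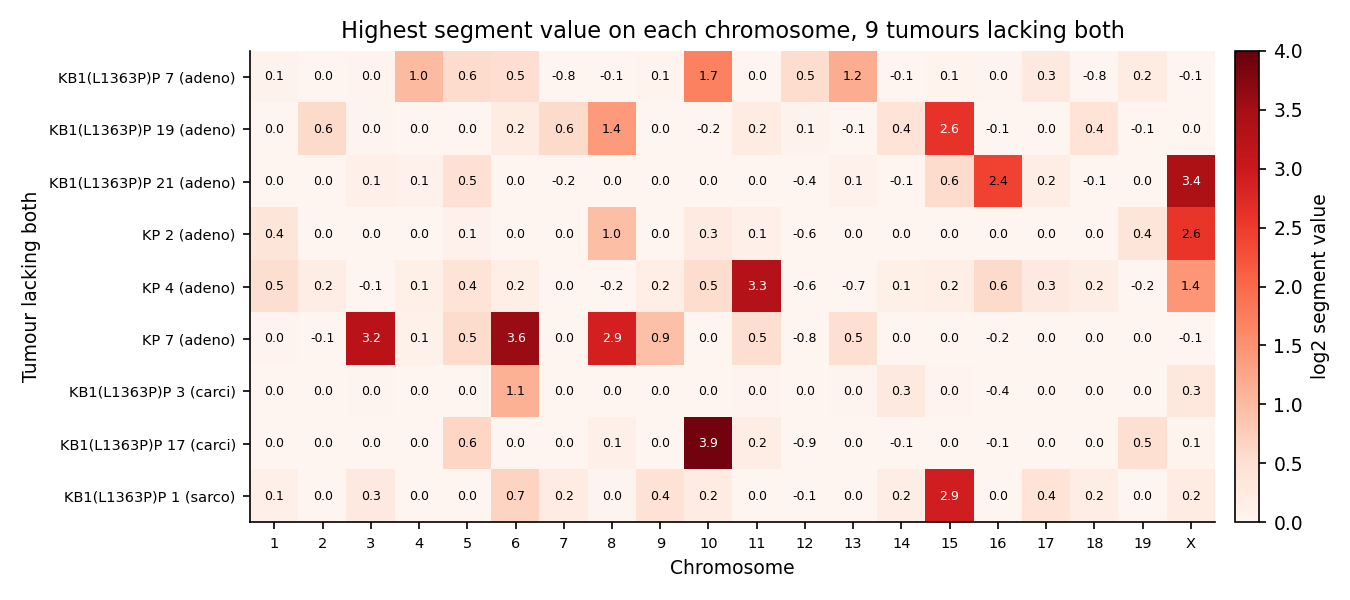
Highest log2 segment value on each chromosome (columns) in each of the 9 tumours lacking both (rows, with genotype, replicate number and the first letters of the histology). High values include 3.90 on chromosome 10, 3.38 on the X chromosome and 3.31 on chromosome 11, in 3 different tumours, and most other squares are near 0.

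Myc, the transcription factor that drives cell growth and division, was the listed oncogene gained at high level in more than 1 of the 9 tumours, together with the neighbouring non-coding gene Pvt1. The only sarcomatoid tumour of the 9, KB1(L1363P)P replicate 1, had Myc at 2.91 in a region of 18 genes at chr15:61288441-63808739. An adenocarcinoma, KB1(L1363P)P replicate 19, had Myc at 2.13 in a region of 5 genes at chr15:61699284-62260215. In the other 7 tumours Myc lay between -0.03 and 0.16, and in the 33 amplified tumours between -0.04 and 0.54, so 2 tumours stood clear of all others. This first tumour had no other high-level gain and no lost gene outside chromosomes 6 and 9. The second had in addition 317 genes at 1 or more at chr15:3217194-44235912, with a peak of 2.62. That region holds Stk3, a Hippo kinase that restrains Yap1, at 1.88, while 2 short stretches further along the chromosome read 1.28. A further region of 4 genes lay at chr8:27582692-28187040 (peak 1.40, first gene Gm1698, last gene Gm8100).

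KP replicate 7 carried gains of several genes of growth signalling and the cell cycle. A gain on chromosome 6 held Ccnd2, a cyclin of the G1 phase, at 2.40, Tead4, a DNA-binding partner of Yap1, at 1.25, and the cell-cycle inhibitor Cdkn1b at 2.34. It lies on the chromosome of Met, which itself read -0.08 in this tumour. Nras, a small GTPase downstream of receptor tyrosine kinases, stood at 2.72 and the anti-apoptotic gene Mcl1 at 2.32 in a region of 154 genes at chr3:94310132-103099720. Cul4a, a scaffold of a ubiquitin ligase, stood at 2.88 in a region of 91 genes at chr8:12573036-19447606. Insr, the insulin receptor, lay at the peak of 2.74 of a region at chr8:3104279-4538190, whose first and last genes are Gm18210 and Vmn2r-ps89; Insr was picked after its value was seen. Shorter gains lay at chr3:81555849-81805161 (Gm4857 to A830029E22Rik, 1.58) and chr3:131893098-132841688 (Gm29865 to Gm22322, 3.22). In the amplified tumours Nras and Mcl1 reached 0.58 and Cul4a 0.33.

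The carcinosarcoma KB1(L1363P)P replicate 17 had its gain on chromosome 10 in 4 regions between chr10:26965973-28923567 and chr10:49093680-68279355. Together 358 genes over 31.9 Mb were at 1 or more, with a peak of 3.90. Lin28b, which blocks the maturation of let-7 microRNAs, stood at 2.74 as the last gene of chr10:38820541-45486314. The other regions ran from Gm30534 to 4930519F09Rik, from Rnf146 to Gm19073 at chr10:29344176-33476709, and from Grik2 to Arid5b. On the distal part of the same chromosome Dusp6, a phosphatase that dampens ERK signalling, read -0.91. The adenocarcinoma KB1(L1363P)P replicate 7 overlapped it at chr10:66740286-70599291 (Gm18777 to Phyhipl), with a peak of 1.71, and continued at chr10:71483056-72527682 (Gm46233 to Gm24984, 1.32). It also had gains at chr4:119205012-121324917 (Tmem269 to Gm12888), whose 45 genes only just reached 1 at 1.00, and at chr13:51378153-51848475 (Gm32834 to Gadd45g, 1.18). Lin28b in replicate 7 was lost, at -0.79.

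KP replicate 4 had gains on chromosome 11 and the X chromosome. A region of 129 genes at chr11:109225348-116466266 (Rgs9 to Qrich2) peaked at 3.31, with Sox9, a transcription factor of progenitor cells, as the one protein-coding gene at the peak (picked after its value was seen). A second region ran from Pecam1 to Cep112os1 at chr11:106654213-108860615 (2.32). Nearer the centromere lay chr11:17938753-19384740 (Etaa1 to Gm12026, 2.46), chr11:12313640-16237546 (Gm12002 to Gm12011, 1.20) and a pair of genes at chr11:34809185-34842354 (Spdl1 and Gm22022, 1.20). On the X chromosome chrX:128700546-134541670 (Gm24522 to Timm8a1) reached 1.44, and Gm6067 to Gm5763 and Mir652 reached 1.18. This tumour had a deep loss of 99 genes at chr12:111828457-120021242 (Ppp1r13b to Tmem196, -1.34).

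KB1(L1363P)P replicate 21 and KP replicate 2 shared high-level gain of a stretch of the X chromosome that holds Gabrq, a GABA receptor subunit. Gabrq read 3.38 and 2.56 in these tumours, between -0.09 and 0.35 in the other 7 and between -0.94 and 0.31 in the amplified tumours. In replicate 21 the stretch was chrX:71050036-78245921 with 149 genes (Mamld1 to Gm14743). In KP replicate 2 it was broken into Gabra3 alone (1.47), chrX:72589988-73459029 (Mir767 to Haus7, 2.56) and chrX:74393233-75144860 (Ikbkg to Fam220-ps, 1.44). Both tumours also had a gain around the dystrophin gene Dmd, at chrX:81820383-85205050 (Actr3-ps to Gm14769, 3.00) and chrX:82187682-86047313 (Gm22686 to Samt3, 2.00). KP replicate 2 had a further gain from Mid1ip1 to H2al1a at chrX:10717365-11299757 (1.36). Replicate 21 had 4 regions on chromosome 16, the highest at chr16:70313949-77646343 (Gbe1 to Mir125b-2, 2.42). The others ran from D16Ertd472e to Gm7559 (1.42), from Gm6032 to Adamts5 (2.04) and from Cldn8 to Gm5965 (1.39). On its X chromosome it had further gains from Gm8260 to Gm24598 (1.96) and from Gm14668 to Gm8172 (2.32), and a deep loss at chrX:57383348-63035345 (Rbmx to Gm6754, -1.01).

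The remaining X gain of KB1(L1363P)P replicate 21 began with a cluster of microRNA genes that is the X-linked paralogue of the oncogenic Mir17hg cluster. Of 915 microRNA genes that could be matched by symbol to the RefSeq sequences, 76 reached 1 in at least 1 of the 9 tumours, where 6.51% of all genes did, and 3 in 2 of them. The cluster was picked after its values were seen, and its mature sequences are shown because they tell what the gained stretch encodes. They are given 5′ to 3′ with the seed, bases 2 to 8, in capitals, from the RefSeq table of GRCm38.p6; all lie on the minus strand of the region chrX:52741693-57224042 (Mir363 to Cd40lg).
mmu-miR-106a-5p: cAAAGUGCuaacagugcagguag
mmu-miR-20b-5p: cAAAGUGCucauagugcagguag
mmu-miR-18b-5p: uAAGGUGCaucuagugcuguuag
mmu-miR-19b-3p: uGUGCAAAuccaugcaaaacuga
mmu-miR-92a-3p: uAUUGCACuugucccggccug
mmu-miR-363-3p: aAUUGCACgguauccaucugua
The first pair share the seed AAAGUGC and the last pair the seed AUUGCAC. The genes of all 6 read 2.63 in this tumour, with a log2 ratio before segmentation of 2.80. They lay between -0.09 and 0.35 in the other 8 tumours lacking both and between -0.94 and 0.31 in the amplified tumours. RNA was not measured in these files.

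The other carcinosarcoma, KB1(L1363P)P replicate 3, had the least change among the tumours with any loss. Its only high-level gains were on chromosome 6, at chr6:118107452-118562280 (Csgalnact2 to Ankrd26, 1.14, with the receptor tyrosine kinase Ret inside), Gm18981 alone (1.14) and chr6:119353150-120444574 (Adipor2 to Gm24592, 1.08). Met, on the same chromosome, read 0.00. Its called changes outside that chromosome were losses of most of chromosomes 12 and 16 and of a short stretch of chromosome 4.

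The high-level gains of the amplified tumours outside chromosomes 6 and 9 were few. KP replicate 3 had 8 genes on chromosome 3 (1.25), KB1(L1363P)P replicate 15 had 41 on chromosome 12 (1.20) and KP replicate 8 had 26 on chromosome 12 (1.59). KB1(L1363P)P replicate 16 had Cdk6, a kinase that drives entry into S phase, in a gain on chromosome 5 with a peak of 2.15.

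Broad changes were mainly losses, and loss of chromosome 12 was the most frequent. A chromosome counts as lost or gained here when at least 50% of its placed genes have that call. Chromosome 12 was lost in 8 of the 9 and in 10 of the 33 amplified tumours, and KB1(L1363P)P replicate 1 was the exception. Chromosomes 8 and 18 were each lost in 3 of the 9 and in 0 of the 33. Losses in 2 of the 9 were seen for chromosomes 3, 10 and 13 (0 of the 33 each), 14 (3 of the 33) and X (1 of the 33), and chromosome 19 was gained in 2 (KP replicate 2 and KB1(L1363P)P replicate 17) and in 0 of the 33. Chromosome 9, which holds Yap1 and is given as a description, was lost in KB1(L1363P)P replicate 7 and KP replicate 7 and in 2 of the 33. It was gained in KB1(L1363P)P replicate 1 and in 0 of the 33. KB1(L1363P)P replicate 7 had 9 lost chromosomes, KP replicate 4 had 5 and KP replicate 7 had 4, and the other tumours had at most 3. Outside chromosomes 6 and 9 the median number of broadly changed chromosomes was 3 (range 0 to 8) in the 9 and 0 (range 0 to 3) in the 33.

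**Figure D4:**
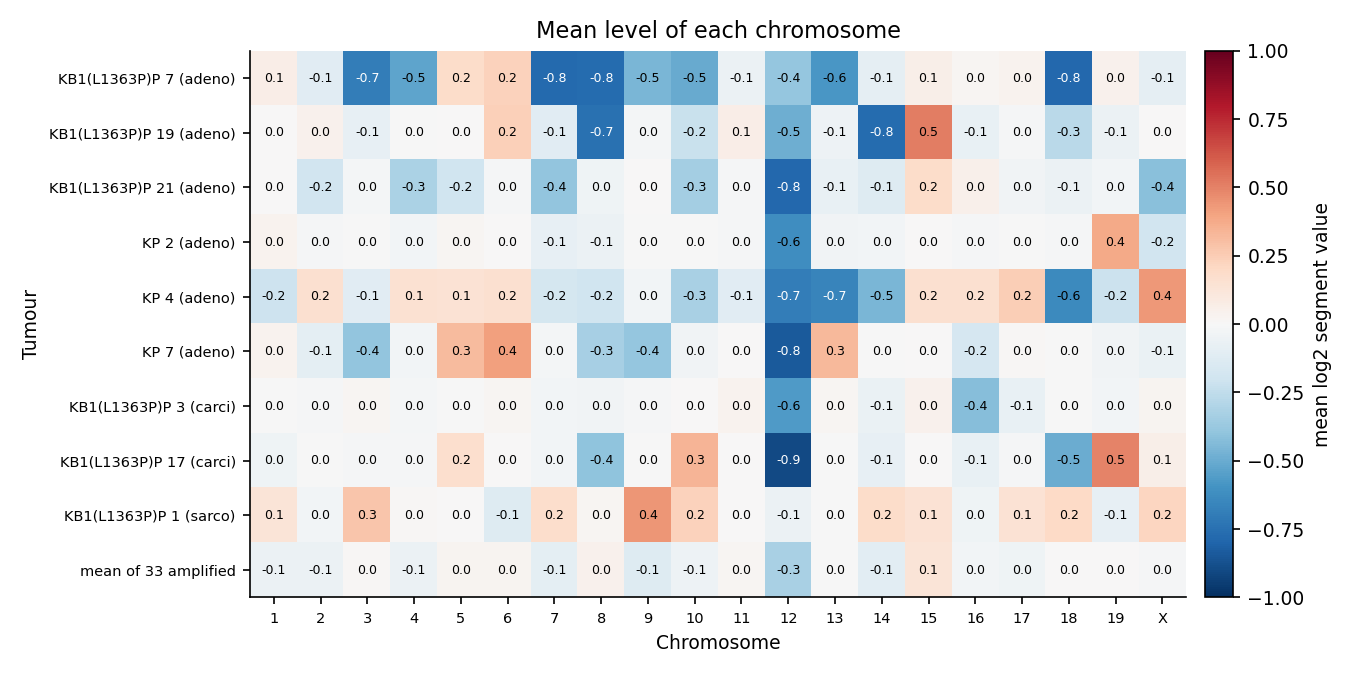
Mean log2 segment value of each chromosome (columns) in each of the 9 tumours lacking both (rows) and, in the last row, averaged over the 33 amplified tumours. Chromosome 12 is below -0.3 in 8 of the 9 rows, and chromosomes 8 and 18 are low in some rows and near 0 in others.

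The mean levels of 3 of 17 autosomes tested were lower in the tumours lacking both. Chromosome 8 read -0.77 in KB1(L1363P)P replicate 7, -0.74 in replicate 19, -0.40 in replicate 17, -0.33 in KP replicate 7 and -0.20 in KP replicate 4. It lay between -0.06 and 0.02 in the other 4 tumours. The amplified tumours ran from -0.13 to 0.33, so 5 of the 9 were below all of them. The mean difference was -0.33 (exact permutation test, adjusted p = 0.0001 over 17 chromosomes), and it passed without each of the 9 tumours in turn. It had the same direction among adenocarcinomas alone (-0.36 ± 0.33 (SD, n = 6) against 0.03 ± 0.04 (SD, n = 3); exact adjusted p = 0.405).

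Chromosome 12 read -0.91, -0.84, -0.79, -0.69, -0.62, -0.57, -0.49 and -0.39 in 8 tumours and -0.06 in KB1(L1363P)P replicate 1. The amplified tumours ran from -0.87 to 0.19 with a median of -0.25, so the groups overlapped almost fully. The means were -0.59 ± 0.26 (SD, n = 9) and -0.32 ± 0.22 (SD, n = 33) (exact adjusted p = 0.0184). Chromosome 18 read -0.79 in KB1(L1363P)P replicate 7, -0.64 in KP replicate 4 and -0.50 in KB1(L1363P)P replicate 17, and it lay between -0.27 and 0.20 in the other 6. Its means were -0.23 ± 0.34 (SD, n = 9) and 0.00 ± 0.10 (SD, n = 33) (exact adjusted p = 0.0159). Without KB1(L1363P)P replicate 17 or KP replicate 4 neither chromosome passed (adjusted exact p from 0.0513 to 0.0749). Chromosome 18 was also lost as a call without KB1(L1363P)P replicate 7 (0.0540), and chromosome 12 without replicate 21 (0.0550). With status permuted within histology none of the 3 chromosomes passed (adjusted exact p = 0.106, 0.468 and 0.468 for chromosomes 8, 12 and 18).

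Across single genes, tested with limma on the segment values with no covariate, 5905 of 43513 genes passed an adjusted p of 0.05, a share of 13.6%. Of these 5161 were lower in the tumours lacking both (11.9% of genes) and 744 higher (1.71%). Among the 29051 placed genes outside chromosomes 6 and 9, 4123 passed (14.2%), 3671 lower and 452 higher. Neighbouring genes share a segment and are not independent. The lower genes lay on chromosomes 8 (1365), 12 (602), 18 (588), 3 (406), 13 (398) and 10 (312), and the higher ones on chromosomes 5 (350), 10 (52) and X (50). The count of higher genes fell to 164 without KB1(L1363P)P replicate 7, to 152 without replicate 17 and to 212 without KP replicate 7, while the count of lower genes stayed between 2701 and 5039 when each of the 9 was left out. In KB1(L1363P)P alone 0 genes were higher and 842 lower, and in library series 5289 alone 0 higher and 801 lower. With histology as a covariate 1357 genes passed, 557 higher and 800 lower, with histology and genotype 15 higher and 796 lower, and with the 6 and 3 adenocarcinomas alone 0 passed (limma, 1434 at an unadjusted p under 0.05).

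The smallest p-values by chromosome marked these stretches. On chromosome 8, Itgb1, a subunit of integrin receptors for the extracellular matrix, was lower by a difference of -0.48 ± 0.07 (SE; limma, adjusted p = 5.7e-06). It ran from -0.89 to 0.02 in the 9, with a median of -0.33, and from -0.15 to 0.33 in the 33. The gene model Gm6173 on chromosome 18 differed by -0.34 (limma adjusted p = 0.0012). Gm33035 on chromosome 10 differed by 0.35 (limma adjusted p = 0.0044), at 1.42 in KB1(L1363P)P replicate 7 and 0.54 and 0.52 in KP replicate 4 and KB1(L1363P)P replicate 17. Arpc1a on chromosome 5, a subunit of the actin-branching Arp2/3 complex, differed by 0.24 ± 0.06 (SE; limma adjusted p = 0.0050) in a stretch of 350 genes at chr5:124463265-145390926. It was between 0.41 and 0.63 in 5 tumours and between 0.00 and 0.09 in the other 4, against -0.24 to 0.28 in the amplified tumours. Gabrq on X differed by 0.73 (limma adjusted p = 0.0224), which was carried by the 2 tumours named above.

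By loss call, the listed tumour suppressor genes were lost about as often as genes at large. Of 30 listed suppressors, all measured, 11 had a loss call in at least 2 of the 9 tumours, where 33.9% of all genes did, and 4 had a gain call in at least 2, where 8.58% of all genes did. Of the 25 outside chromosomes 6 and 9, limma had 5 lower and 0 higher, where 3671 of 29051 placed genes there were lower. The median difference of the 25 was -0.05, against -0.03 over those placed genes. The E-cadherin gene Cdh1, which holds epithelial cells together, and Wwox, at a common fragile site, were lost in 4 of the 9 and in 0 of the 33. They lie on chromosome 8, where 1365 of 1638 placed genes were lower by limma, and had the same segment values in each of the 9. Both read -0.89, -0.86, -0.78 and -0.77 in those 4 tumours and between -0.20 and 0.02 in the other 5, and both ran from -0.15 to 0.33 in the amplified tumours (limma, difference -0.46 ± 0.07 SE, adjusted p = 5.7e-06). Smad4, the shared mediator of TGF-beta signalling, lies on chromosome 18, where 588 of 911 placed genes were lower by limma. It was lost in 4 of the 9 and 0 of the 33 (-0.91, -0.86, -0.79 and -0.67, limma adjusted p = 0.0022).

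Max, the dimer partner of Myc, lies on chromosome 12 and was lost in 8 of the 9 and 10 of the 33 (limma adjusted p = 0.0265). Traf3, an inhibitor of NF-kappaB signalling, Dicer1, which processes microRNA precursors, and Bcl11b, a transcription factor, were lost in 7 of the 9 and 8 of the 33. Fbxw7, which targets Myc and cyclin E for degradation, lies on chromosome 3. It was lost in 2 of the 9 and 0 of the 33 (limma adjusted p = 0.0495, passed in 7 of 21 alternatives that change the fit). Other suppressors lost in 2 of the 9 were Rb1 (4 of the 33), Apc (0 of the 33) and Map3k1 (0 of the 33). Brca2, on chromosome 5, had a gain call in 3 of the 9 and 0 of the 33, at 0.63, 0.56 and 0.44. Cdkn1b and Ing1 had gain calls in 2 of the 9, and in 2 and 1 of the 33.

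In the Hippo list, all 21 genes were measured, 7 had a loss call in at least 2 of the 9 (33.9% of all genes did) and 1, Tead4, a gain call in at least 2 (8.58% of all genes). Of the 15 genes of the list outside chromosomes 6 and 9, limma had 3 lower and 0 higher, where 3671 of 29051 placed genes there were lower. The 3 were Fat1, Fat4 and the Yap1 paralogue Wwtr1. Fat1, an upstream cadherin, lies on chromosome 8 (difference -0.32, limma adjusted p = 0.0027, lost in 3 of the 9 and 0 of the 33). Fat4 and Wwtr1 lie on chromosome 3 (differences -0.20 and -0.19, limma adjusted p = 0.0491 for both, lost in 2 of the 9 and 0 of the 33). Fat4 and Wwtr1 passed in 7 of 21 alternatives each, and Fat1 in 12. Sav1, the scaffold of the Hippo kinases, lies on chromosome 12 and was lost in 7 of the 9 and 10 of the 33. Lats2, Amotl2 and Tead2 were lost in 2 of the 9, and in 3, 2 and 0 of the 33. The median difference of the 15 genes outside chromosomes 6 and 9 was -0.06, against -0.03 over all placed genes there. None of the 9 had a segment value of 1 or more at Wwtr1, and at most 1 had it at any Tead gene.

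Of 25 genes of receptor and Ras signalling, 24 were measured. Loss calls in at least 2 of the 9 were found for 7, where 33.9% of all genes had them, and gain calls in at least 2 for 1, where 8.58% did. Nras reached 1 in KP replicate 7. No receptor on the list reached 1 in any of the 9, which for Met was fixed by the choice of tumours. Egfr had its highest level at 0.58 in KP replicate 4, and Pdgfra, Kit and Kdr theirs at 0.43 in KP replicate 7. Of the 20 genes of the list outside chromosomes 6 and 9, limma had 3 lower and 0 higher, where 3671 of 29051 placed genes there were lower. The median difference of the 20 was -0.04, against -0.03 over those placed genes. The 3 were Dusp6 on chromosome 10 (-0.29, limma adjusted p = 0.0061, lost in 4 of the 9 and 0 of the 33), the receptor Fgfr1 on chromosome 8 (-0.26, limma adjusted p = 0.0087) and the receptor Pdgfrb on chromosome 18 (-0.27, limma adjusted p = 0.0087). Hras, Fgfr4, Rasa1 and Spry2 were lost in 2 of the 9, and in 1, 0, 0 and 3 of the 33.

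Of 25 listed amplification targets, 23 were measured and 6 reached 1 in at least 1 of the 9 tumours, where 6.51% of all genes did. These were Myc, Pvt1, Lin28b, Ccnd2, Cul4a and Mcl1, against 2 of the Ras list, 2 of the Hippo list and 1 of the suppressors. The lists were chosen with earlier results of these data known, and Myc and Pvt1 lie in the same regions, so these counts only describe. Gain calls in at least 2 of the 9 were found for Myc, Pvt1, Ccnd2 and Cul4a, 4 of 23, where 8.58% of all genes had them. Loss calls in at least 2 were found for 8 targets, near the 33.9% of all genes, among them Mycn on chromosome 12 in 5 of the 9, and Cdk4 and Mdm2 on chromosome 10 in 3. Birc2 and Birc3 lie beside Yap1 in the amplified stretch, so their difference of -3.07 describes the choice. None of the 20 targets outside chromosomes 6 and 9 passed (limma, smallest adjusted p = 0.0504).

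**Figure D5:**
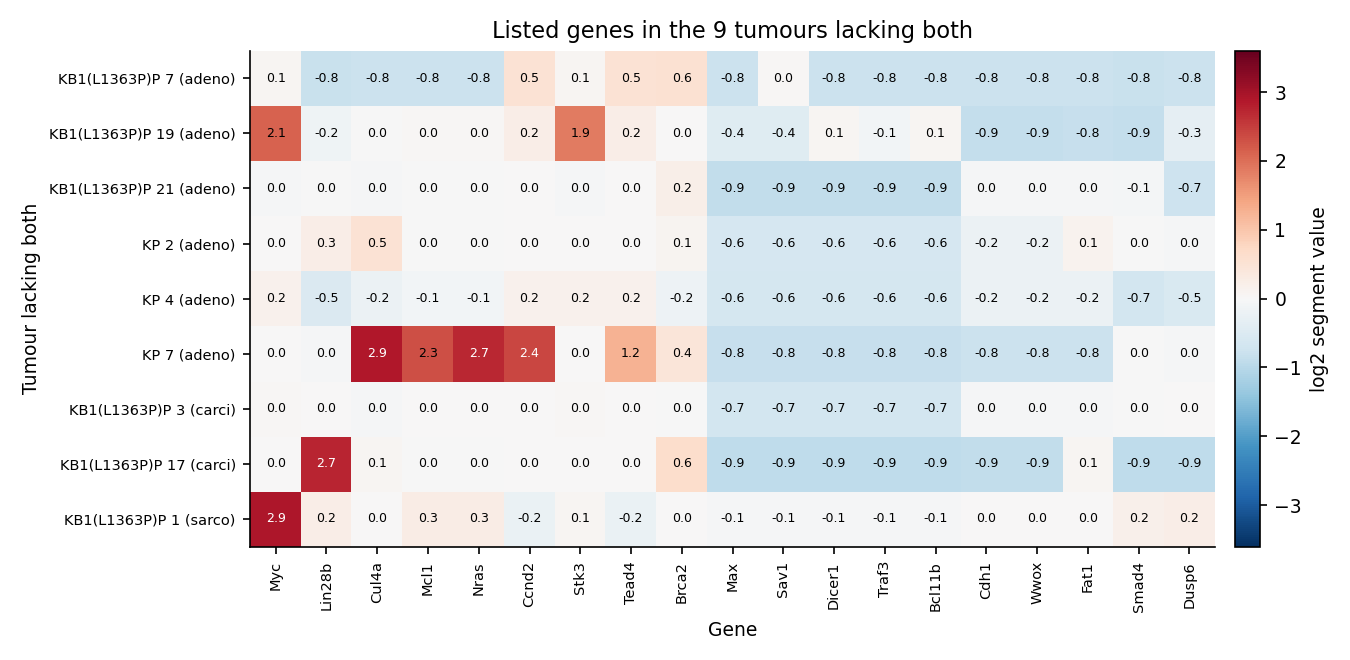
Log2 segment values of 19 listed genes (columns) in the 9 tumours lacking both (rows). High values stand in single rows, such as 2.72 for Nras in KP replicate 7 and 2.91 for Myc in KB1(L1363P)P replicate 1, while the losses of Max, Sav1 and their neighbours on chromosome 12 run through most rows.

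The set is small within each genotype. The altered share was 23.8% in the 3 KP tumours and 16.6% in the 6 KB1(L1363P)P tumours, against 3.05 and 3.47% in the amplified tumours of each genotype. A test of whether the difference between status groups itself differed between genotypes passed for 0 of 9 measures (exact permutation of genotype within status, smallest adjusted p = 0.373), which does not show that the genotypes are alike. The nearest was the gained share, 6.84 points higher in KP and 1.59 points higher in KB1(L1363P)P (raw exact p = 0.0414).

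In 2 cases a tumour lacking both shared its tumour number with an amplified one. KB1(L1363P)P replicates 6 and 7 share a number, as do replicates 18 and 19; in each pair the first was sarcomatoid and amplified and the second was an adenocarcinoma lacking both. Their profiles outside chromosomes 6 and 9 correlated at 0.19 and 0.15 over 29051 genes, which share segments and bins and carry no test. KB1(L1363P)P replicates 23 and 24, amplified carcinosarcomas that also share a number, correlated at 0.45. The altered share was 0.062% in replicate 6 and 42.4% in replicate 7, and 0% in replicate 18 and 16.2% in replicate 19. With 1 tumour kept per number, the mean altered share was 16.1% (n = 7) against 3.19% (n = 32) (exact adjusted p = 0.0007), and chromosome 18 no longer passed (adjusted exact p = 0.146).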

How the data were processed

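Copy-number matrices of 43513 gene symbols in 101 samples were used, and 42 tumours entered the comparisons. The labels' protocols describe alignment by BWA, read counts in 20-kb bins, and correction for GC and mappability, and they name a human build. Build mm10 and the versions of cutadapt (2.5), BWA (0.7.17), SAMtools (1.10) and Picard come from the submitters' processing notes. The authors deposited log2 ratios, log2 segment values and a copy score whose neutral state is 2. In 99.9919% of cells this score was what rounding the segment value, put back on a linear scale around 2, gives. How segments were made, the reference of the ratios and the depth: not given in the sources used here.

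A gene table of GRCm38.p6 placed 32687 symbols. Large-scale transitions were counted after removing segments under 3 Mb and joining neighbours within 0.1. Means were compared by two-sided exact permutation over all splits, shares by Fisher's exact test, with Benjamini-Hochberg adjustment over 12 comparisons or 17 autosomes. Per gene, limma 3.58.1 (R 4.3.3) compared segment values, with adjustment over 43513 genes. Other steps used Python 3.11.15 with SciPy 1.17.1, NumPy 2.4.6, pandas 2.3.3 and matplotlib 3.10.9. As a check, status was shuffled once per shift size in the real segment values (9 against 33 tumours), and a constant was added to 200 genes. There limma recovered 60% of genes shifted by 0.3 and 95.5% shifted by 0.5, and called 0 of the other 28851. The 200 genes were drawn singly, while real changes run through neighbouring genes, so this says little about errors in long stretches.

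The tumours and the 4 gene lists were chosen with earlier results of these data known. Named are the listed genes in each high-level region (else its first and last gene), listed genes with calls in at least 2 of the 9 (up to 12 a list), up to 8 listed genes called by limma (else the 2 with the smallest p), and the gene with the smallest p on 6 chromosomes. Aurka, Akt1 and Erbb3 were not matched in the tables used. Alternatives covered thresholds, genotype, library series, histology, shared tumour numbers and single tumours. Some genes that these rules name are not reported here, though counts over lists include them.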

Additional observations from a re-analysis of the deposited data

Results flagged for a closer look

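Among the 9 tumours lacking both amplifications, 24 measures that the choice of tumours did not use were examined for a tumour far from the other 8, and 2 had one; chance gives about 1 in 20. The mean level of chromosome 1 was -0.21 in KP replicate 4, against -0.04 to 0.13 in the others. The mean level of chromosome 15 was 0.51 in KB1(L1363P)P replicate 19, against 0.00 to 0.18 in the others, and this tumour carries the long gain of the proximal part of that chromosome.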

How the results depend on the processing

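The split of the tumours was the same at thresholds of 0.5 and 2 and with log2 ratios, so these 3 settings repeat the same values. In library series 5490 alone (3 against 6 tumours) no main result passed; exact tests of 3 against 6 cannot go below p = 0.0119, which adjustment over 12 comparisons lifts past 0.05 unless several reach it, so their failures say nothing about stability. There the altered share differed by 14.9 points, breakpoints by 78.7, high-level gain by 83.3 points, adenocarcinoma share by 66.7 and epithelial percentage by 10 points, with 0 chromosomes and 0 genes called (limma, 2444 genes at an unadjusted p under 0.05). With sarcomatoid tumours only (1 against 21) the altered share turned to -0.0316 points, breakpoints differed by 7.19, 0 chromosomes passed, chromosomes 12 and 18 turned to 0.16 and 0.20, and limma, with the lone tumour assumed to vary like the others, called 5775 genes higher and 119 lower. Adenocarcinomas only, a choice made after the data were seen, gave 18.3 points of altered share, 66.7 points of high-level gain, 0 chromosomes and 0 genes (limma, 1434 at an unadjusted p under 0.05). Counting any value beyond 0.1 left 1.68 points of altered share. The adenocarcinoma share differed by 80 points in KP and 44.1 in series 5289, and in both the exact test over the 3 histologies did not pass after adjustment. For adenocarcinoma against the rest in KP alone, Fisher's exact test gave an unadjusted p = 0.0245. Whole-chromosome calls numbered 3, but 0 with permutation within histology and 1 in KB1(L1363P)P alone or series 5289 alone; leaving out each of the 9 in turn gave 1 to 4. Genes called outside chromosomes 6 and 9 numbered 4123, and 1899 in KP, 842 in KB1(L1363P)P and 801 in series 5289 (0 higher in both), 2539 with 1 tumour per number, 1357 with histology as a covariate, 811 with histology and genotype (15 higher), 1319 without sarcomatoid tumours (added after the data were seen) and 3111 to 5492 without each of the 9 in turn. Over their alternatives adjusted p ran from 4.3e-06 to 1 for the altered share, 7.5e-06 to 0.848 for breakpoints, 2.1e-05 to 0.143 for high-level gain, 0.0018 to 0.286 for histology and 0.0020 to 0.302 for epithelial percentage. Replicate numbers only name tumours, but 2 tumour numbers of KB1(L1363P)P are shared across status: with the tumour number as a random replicate block in limma (added after the data were seen), 4466 genes passed, 452 higher and 4014 lower. Depth is unknown, and the noise of log2 ratios limits shifts near 0.1.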
